A study of Mus musculus with 6 samples.

Results

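A set of liver drug transport genes was followed across the series, namely Abcc2, Abcc3, Abcc4, Abcc6, Abcb1a, Abcg2, Abcb4, Slco1a1 and Slco1b2. They were taken by gene symbol, 9 of the 55401 genes in the table, and each symbol was found in the 6 libraries used here. Poly(A) RNA of C57BL/6 mouse liver had been sequenced in 3 groups of 2 libraries each. The control group (replicates 1 and 3) carries the treatment label control, with no vehicle named. The APAP group (replicates 1 and 3) was taken 6 h after 400 mg/kg acetaminophen (APAP, the pain reliever paracetamol, toxic to the liver in overdose) injected into the peritoneum. The COS+APAP group (replicates 2 and 3) had the same APAP dose and hour after 20 mg/kg costunolide (COS, a sesquiterpene lactone of plants) at 12 h and again at 40 min before APAP. No group used here received costunolide alone, and the labels used here name no genotype beyond the strain, no sex and no age.

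Some features of the labels bear on every comparison below. The treatment text gives costunolide to the samples it numbers 5 and 6, and in accession order these are the libraries titled model, whose own labels say APAP. Groups were taken from each library's own title, source and treatment, and if the treatment text were right instead, the names APAP and COS+APAP would be exchanged and the sign of each difference between them would turn. Titles in the COS+APAP group carry the number 2 after the group word and those of the other libraries 1, so a batch that goes with this number cannot be told apart from costunolide. The labels do not say whether a group's 2 libraries are 2 animals, and p-values then measure only the spread between these libraries, which may be technical.

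Libraries held 71115112 to 76669799 estimated counts, and 9632 to 10153 genes reached 1 FPKM (fragments per kilobase of transcript, a level scaled also to depth). Transcripts of the mitochondrial genome took 7.37% to 16.09% of the counts. The extraction text speaks of an adipose type, but 8 of 8 hepatocyte markers were measured above 1 FPKM, with summed levels from 47150 to 64200 FPKM. The summed level of 4 adipocyte markers was 0 to 5.06 FPKM, with Lep at 0 in all 6 libraries. The labelled tissue, liver, thus had its defining markers.

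Hepatocytes take up drugs, bile acids and bilirubin from sinusoidal blood and hand them to the bile. Uptake at the sinusoidal (basolateral) face uses organic anion transporting polypeptides of the Slco family, and export uses ATP-driven pumps of the ABC family, either across the canalicular face into bile or back across the basolateral face into blood. Glucuronide, sulfate and glutathione conjugates of acetaminophen are among the known cargo of the Abcc2, Abcc3, Abcc4 and Abcg2 pumps. In bulk tissue, fewer cells of a type and less RNA per cell cannot be told apart.

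APAP libraries held more Abcb4 and Abcc3 transcript than control libraries and less Abcc6 and Slco1b2. Differences were tested with edgeR's quasi-likelihood method and Benjamini-Hochberg adjustment over 10051 genes with a mean of at least 1 FPKM, and a gene was called changed at an adjusted p below 0.05. Abcc4 and Abcb1a averaged 0.795 and 0.873 FPKM and lay under this filter, so 7 of the 9 members were tested there and these 2 in the same test without a filter. Of the 7, 2 rose and 2 fell against control, or 4 in either direction. The background was high, since 45.4% of all tested genes were called in this comparison, 23.3% as higher and 22.1% as lower. The members' median log2 fold change was -0.10 beside -0.00 over all tested genes.

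In COS+APAP against APAP, 1 of the 7 members was called, Abcb4, which was lower in COS+APAP. Over all tested genes 22.4% were called, 11.2% as higher and 11.1% as lower, and the medians were -0.06 for the members and 0.01 for all genes. The count of 1 became 0 when APAP replicate 1, APAP replicate 3 or COS+APAP replicate 3 was left out. Against control, 1 of the 7 was called in COS+APAP, Abcc6, which was lower there. Over all tested genes 21% were called there, 10.7% as higher and 10.3% as lower, with medians of -0.09 for the members and 0.02 for all genes. This count became 0 without COS+APAP replicate 3. In the test without a filter, on 26367 genes, the shares of genes called were 18.1%, 7.55% and 5.87% in the same order of comparisons. The 3 comparisons share libraries pairwise and are not independent of each other.

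The balance of higher and lower calls over all genes differed between methods. Of the genes called between APAP and control, 51.3% were higher, but 40.7% by limma on log2(FPKM + 1). For COS+APAP against APAP the share was 50.2%, but 62.8% with upper-quartile scaling, where the median of all genes was 0.12 in place of 0.01. For COS+APAP against control it was 50.9%, but 29.4% by limma, and 50.4% with upper-quartile scaling in edgeR. The directions of the members named as called were the same under each scaling and method tried.

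**Figure D1:**
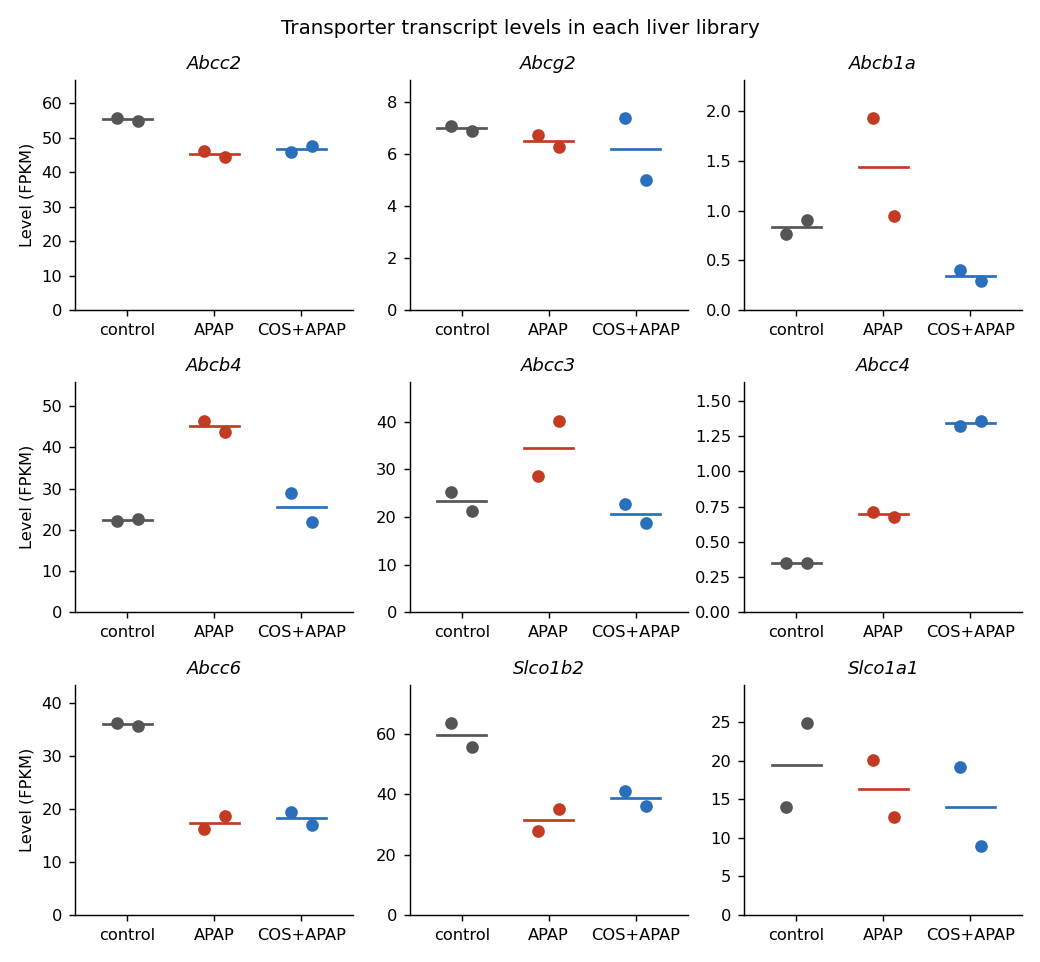
Level in FPKM (linear vertical axis from 0, own scale per panel) of the 9 transporter genes, 1 panel a gene, with points for the 2 libraries of control, APAP and COS+APAP and a line at each group's mean. Abcb4 is highest in the APAP libraries (46.51 and 43.77 FPKM), Slco1b2 is highest in control, and Abcc4 and Abcb1a lie near or below 1 FPKM in most libraries.

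The first members export into bile or lie in the canalicular membrane. Abcc2 (ENSMUSG00000025194, chr19:43782192-43840740, plus strand) encodes MRP2, the main canalicular pump for conjugated bilirubin and drug conjugates. It stood at 55.67 and 54.95 FPKM in control, at 46.03 and 44.34 in APAP and at 45.78 and 47.72 in COS+APAP. Both control values lay above the other 4, whereas the APAP and COS+APAP values overlapped. Against control the log2 fold change was -0.15 ± 0.11 (SE) in APAP (edgeR adjusted p = 0.282) and -0.09 ± 0.11 in COS+APAP (adjusted p = 0.599), neither past the test. Its difference between COS+APAP and APAP was 0.07 ± 0.11 (adjusted p = 0.678).

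Abcg2 (ENSMUSG00000029802, chr6:58584523-58695676, plus strand) encodes BCRP, a canalicular pump for sulfated conjugates and urate. Its levels were 7.09 and 6.90 FPKM in control, then 6.73 and 6.29 in APAP, then 7.39 and 5.01 in COS+APAP. The COS+APAP pair spanned the range of the other 4 libraries. No comparison passed, with log2 fold changes of 0.04 ± 0.19, -0.06 and -0.02 (edgeR adjusted p = 0.895, 0.857 and 0.955), and their signs turned under other scalings or without single libraries.

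Abcb1a (ENSMUSG00000040584, chr5:8660077-8748575, plus strand) encodes a P-glycoprotein of the canalicular face that is also made in capillary endothelium. It was low, at 0.76 and 0.91 FPKM in control, then 1.93 and 0.95 in APAP, then 0.40 and 0.29 in COS+APAP. The estimated counts behind these levels were 347 and 401, 842 and 437, and 172 and 129. The groups did not overlap, but the APAP pair lay far apart, its lower library close to the higher control one. Abcb1a fell between APAP and COS+APAP by 2.04 ± 0.40 on the log2 scale, 4.1-fold lower (edgeR without a filter, adjusted p = 0.0351). This call was lost without any one of the 6 libraries except APAP replicate 3, with a change of -1.40 and adjusted p = 0.139 without APAP replicate 1. The adjusted p was 0.151 without COS+APAP replicate 2, 0.195 without COS+APAP replicate 3, 0.0635 without control replicate 1 and 0.0644 without control replicate 3. It was also lost by limma on FPKM (adjusted p = 0.0772 and 0.109) and with only the 4 libraries compared (0.0631). APAP and COS+APAP did not pass against control, at 0.94 ± 0.38 (adjusted p = 0.159) and -1.10 ± 0.39 (adjusted p = 0.177).

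Endothelial markers moved beside Abcb1a. The summed level of 9 sinusoidal endothelial markers was 33.2 and 37.11 FPKM in control, then 46.61 and 43.68 in APAP, then 26.45 and 24.25 in COS+APAP, and 7 of the 9 fell between APAP and COS+APAP while 1 rose. Over all tested genes 22.4% were called between COS+APAP and APAP. The part of these markers in the Abcb1a values was not tested. Abcb1b, the neighbouring P-glycoprotein gene (chr5:8798147-8865935) that lies between Abcb1a and Abcb4, stayed at 0.10 to 0.19 FPKM in the 6 libraries. Reads of these close paralogs can be shared, and the values of Abcb1a, Abcb1b and Abcb4 are uncertain to that extent.

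Abcb4 (ENSMUSG00000042476, chr5:8893717-8959226, plus strand) encodes the floppase that moves phosphatidylcholine into bile and so protects the bile ducts from bile acids. The 250 bases upstream of its RefSeq start are shown because it is the member with the most stable rise in APAP. They lie at chr5:8893471-8893720 on the plus strand (RefSeq sequence, GRCm38.p6) and are printed 5′ to 3′ in lower case, with no capitals because none of the 3 motifs reported here occurs in them.
Abcb4: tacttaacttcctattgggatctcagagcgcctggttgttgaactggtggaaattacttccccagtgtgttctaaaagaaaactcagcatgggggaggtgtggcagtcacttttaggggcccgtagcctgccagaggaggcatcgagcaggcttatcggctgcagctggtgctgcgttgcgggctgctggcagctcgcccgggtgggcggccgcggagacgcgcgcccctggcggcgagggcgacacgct
The motifs reported here were TGACNNNGC (the core of the antioxidant response element bound by NRF2), TGANTCA (an AP-1 site) and TTGCATCA (a C/EBP-ATF element), each searched on both strands. Of 32851 upstream windows of 250 bases, 10.2%, 6.75% and 0.791% held them, in that order. A match describes the letters of a window and is no evidence of binding.

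Abcb4 stood at 22.25 and 22.69 FPKM in control, at 46.51 and 43.77 in APAP and at 28.86 and 22.03 in COS+APAP. Both APAP values lay above all other libraries, and the COS+APAP values overlapped control. Abcb4 rose 2.21-fold in APAP, by 1.15 ± 0.15 on the log2 scale (edgeR adjusted p = 0.00375), and kept this call in every alternative run. It was 1.75-fold lower in COS+APAP than in APAP, a change of -0.81 ± 0.15 (adjusted p = 0.0212). That call was lost without APAP replicate 1 (adjusted p = 0.0996), APAP replicate 3 (0.055) or COS+APAP replicate 3 (0.0671). Against control, COS+APAP stood at 0.33 ± 0.15 (adjusted p = 0.174).

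Of the 9 sinusoidal endothelial markers given above, 4 rose and 1 fell in APAP. The summed level of 8 cholangiocyte markers was 28.89 and 34.8 FPKM in control, then 52.54 and 36.09 in APAP, then 20.23 and 21.13 in COS+APAP, most of it Spp1, and Cftr, which marks ducts, was at or below 0.02. Of 3 cholangiocyte markers tested, 1 rose in APAP, and 2 fell between APAP and COS+APAP. Over all tested genes 45.4% were called in APAP against control and 22.4% in COS+APAP against APAP. The part of these markers in the Abcb4 difference was not tested.

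**Figure D2:**
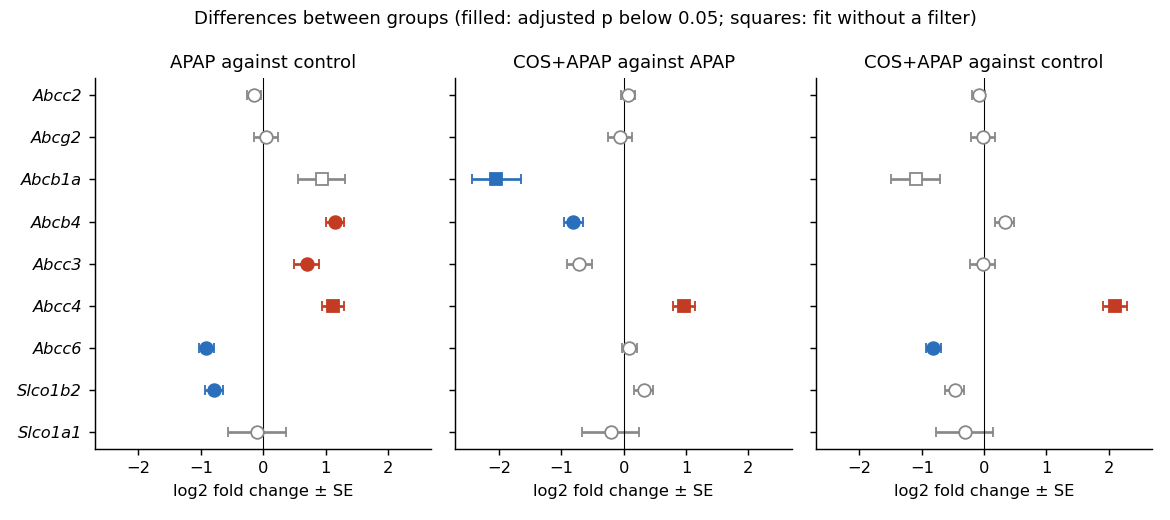
Log2 fold changes of the 9 genes in the 3 comparisons (horizontal axis, edgeR, bars of 1 standard error), where filled symbols passed an adjusted p of 0.05, open ones did not and squares come from the test without a filter. Abcc4 is positive in all 3 comparisons, Abcb4 is positive in APAP against control (1.15) and negative in COS+APAP against APAP (-0.81).

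Another 3 members send cargo back to the blood. Abcc3 (ENSMUSG00000020865, chr11:94343295-94392997, minus strand) encodes MRP3, the pump that carries acetaminophen glucuronide into plasma. It was measured at 25.34 and 21.22 FPKM in control, at 28.63 and 40.25 in APAP and at 22.70 and 18.71 in COS+APAP. The APAP pair was above all others but spread more widely than either other pair, and COS+APAP overlapped control. Abcc3 rose 1.62-fold in APAP by edgeR, a log2 fold change of 0.70 ± 0.20 (adjusted p = 0.0346). Leaving out APAP replicate 3 (adjusted p = 0.136), control replicate 1 (0.0598) or control replicate 3 (0.144) ended this call. So did upper-quartile scaling (0.58, 0.0581), limma on FPKM (0.53 and 0.55, adjusted p = 0.0837 and 0.0861), no filter (0.0621), 4 libraries (0.052) and the replicate block (0.67, 0.0921). The change from APAP to COS+APAP was -0.71 ± 0.20 and did not pass (edgeR adjusted p = 0.0547), although DESeq2 called it (-0.73, adjusted p = 0.00663). COS+APAP against control stood at -0.02 ± 0.20 (adjusted p = 0.964).

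Abcc4 (ENSMUSG00000032849, chr14:118482692-118706219, minus strand) encodes MRP4, a basolateral pump for bile acids, cyclic nucleotides and sulfated conjugates that is scarce in normal liver. Its upstream window is shown because Abcc4 was called in all 3 comparisons and is known as an NRF2 target, which makes the antioxidant response element core of interest. The 250 bases before its RefSeq start, at chr14:118706220-118706469 on the minus strand (GRCm38.p6), hold 1 match to TGACNNNGC on the opposite strand, from -25 to -17 relative to the start and in capitals.
Abcc4: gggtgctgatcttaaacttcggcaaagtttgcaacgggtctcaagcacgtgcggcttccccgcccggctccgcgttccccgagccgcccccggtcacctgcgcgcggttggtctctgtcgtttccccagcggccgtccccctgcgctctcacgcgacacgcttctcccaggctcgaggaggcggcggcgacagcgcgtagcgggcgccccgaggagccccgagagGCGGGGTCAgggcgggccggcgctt
A second RefSeq start of Abcc4, 29288 bases from the gene start given above, holds another match, TGACTCTGC, from -23 to -15. Abcc2 holds TGACATAGC from -98 to -90. Windows of Abcb1a, Abcg2, Slco1a1 and Slco1b2 held none of the 3 motifs reported here, and 7 of the 9 members had a window in the RefSeq table. The RefSeq start of Abcb1a lies 92986 bases from the gene start given above.

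Abcc4 measured 0.35 and 0.35 FPKM in control, then 0.71 and 0.68 in APAP, then 1.32 and 1.36 in COS+APAP. The estimated counts were 187 and 183, 363 and 366, and 654 and 716. The 3 groups did not overlap, and each group's libraries lay close together. Abcc4 rose 2.18-fold in APAP, by 1.12 ± 0.18 on the log2 scale (edgeR without a filter, adjusted p = 0.00981). In COS+APAP it was 1.96-fold higher than in APAP, by 0.97 ± 0.18 (adjusted p = 0.031), and 4.27-fold higher than in control, by 2.10 ± 0.19 (adjusted p = 0.00551). Among the 9 members it was the only one called higher with costunolide than with APAP alone in these tests.

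Leaving out 1 library ended several of the Abcc4 calls but moved the log2 fold changes little. They stayed at 1.07 to 1.19 in APAP against control and 0.91 to 1.03 in COS+APAP against APAP. In COS+APAP against control they stayed at 2.07 to 2.13. The rise in APAP was lost without APAP replicate 1 (adjusted p = 0.0508) or control replicate 3 (0.0537), with limma on log2(FPKM + 1) (0.33, 0.0627) and with the replicate block (0.0981). The difference between COS+APAP and APAP was lost without any one of the 6 libraries, with adjusted p of 0.124 and 0.109 without APAP replicates 1 and 3, 0.138 and 0.142 without COS+APAP replicates 2 and 3, and 0.0551 and 0.0566 without control replicates 1 and 3. It was also lost by limma (0.0563 and 0.0611) and with 4 libraries (0.0515). COS+APAP against control was lost without COS+APAP replicate 2 (0.0502) or 3 (0.061). With a filter at a mean of 0.5 FPKM, chosen after seeing the data, the 3 changes were 1.13, 0.96 and 2.09 (adjusted p = 0.00579, 0.0197 and 0.00396). Abcc4 passed this cut-off only through APAP and COS+APAP, so these adjusted p-values are no further support for its calls.

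Abcc6 (ENSMUSG00000030834, chr7:45967555-45980006, minus strand in the table) encodes MRP6, a basolateral protein of hepatocytes needed for ATP release that limits calcification elsewhere in the body. Its gene model in the table is shorter than in GENCODE M21, where the gene ends at 46030302. Levels were 36.21 and 35.68 FPKM in control, then 16.12 and 18.70 in APAP, then 19.46 and 17.06 in COS+APAP. Both treated groups lay below control and overlapped each other. Abcc6 in APAP fell by 0.91 ± 0.12 on the log2 scale, 1.88-fold lower (edgeR adjusted p = 0.00347). It was 1.77-fold lower in COS+APAP than in control (-0.82 ± 0.12, adjusted p = 0.0108), a call lost without COS+APAP replicate 3 (-0.74, 0.0602). From APAP to COS+APAP it differed by 0.09 ± 0.12 (adjusted p = 0.616).

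The last 2 members take up organic anions from blood. Slco1b2 (ENSMUSG00000030236, chr6:141629518-141686646, plus strand) encodes the mouse OATP1B protein, which takes up bilirubin and many drugs. Slco1b2 was measured at 63.64 and 55.61 FPKM in control, at 27.71 and 35.05 in APAP and at 41.20 and 36.27 in COS+APAP. The groups did not overlap, with control highest and COS+APAP between. Slco1b2 in APAP fell by 0.79 ± 0.15 on the log2 scale, 1.73-fold lower (edgeR adjusted p = 0.0102), and this call held in every alternative run. In COS+APAP it stood 0.32 ± 0.15 from APAP (adjusted p = 0.177) and -0.47 ± 0.15 from control (adjusted p = 0.082). The latter was called by DESeq2 (-0.48, 0.0217) and by limma on FPKM (-0.61 and -0.62, adjusted p = 0.0474 and 0.0498).

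Slco1a1 (ENSMUSG00000041698, chr6:141907282-141946962, minus strand) encodes OATP1A1, an uptake carrier of rodents that is known to differ between the sexes. Its values were 13.93 and 24.86 FPKM in control, then 20.07 and 12.66 in APAP, then 19.12 and 8.96 in COS+APAP. All groups overlapped and each pair spread widely. No comparison passed, with log2 fold changes of -0.10 ± 0.46, -0.21 and -0.31 (edgeR adjusted p = 0.879, 0.77 and 0.668), and a difference of the size seen for Slco1b2 was not detectable against this spread. Other Slco1 genes lie beside it on chromosome 6. Of these, Slco1a4 went from 6.86 and 8.80 FPKM in control to 2.00 and 4.30 in APAP (-1.18, adjusted p = 0.0437) and stood at 6.14 and 7.73 in COS+APAP (1.17 from APAP, adjusted p = 0.0716). Slco1a5 and Slco1c1 did not exceed 0.04 FPKM and Slco1a6 was listed at 0. Close paralogs of this cluster can share reads, so these values carry that uncertainty.

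Because FPKM is scaled to gene length, members can be ranked by level within a library. The rank of Abcc6 rests on its shorter gene model. Shared reads of paralogs leave the ranks of Abcb1a, Abcb4 and the Slco1 members uncertain to the extent given above. In both control libraries Slco1b2 stood first and Abcc2 next, followed by Abcc6. In the APAP libraries Abcb4 and Abcc2 held the first places, 46.51 and 46.03 FPKM in replicate 1 and 43.77 and 44.34 in replicate 3, so these neighbours did not differ beyond their spread. In both COS+APAP libraries the order was Abcc2, Slco1b2, Abcb4, Abcc3, Abcc6, Slco1a1, Abcg2, Abcc4 and Abcb1a. Abcc4 was last in control and APAP and Abcb1a was last in COS+APAP.

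The summed level of the 9 members was 225.2 and 223.2 FPKM in control, then 194.4 and 202.7 in APAP, then 186.2 and 157.4 in COS+APAP. The canalicular members (Abcc2, Abcg2, Abcb1a and Abcb4) took 38.1% and 38.3% of that sum in control, 52.0% and 47.0% in APAP, with 44.3% and 47.7% in COS+APAP. The uptake members took 34.4% and 36.1%, 24.6% and 23.5%, and 32.4% and 28.7%. Basolateral efflux members took 23.3% to 29.4% with the groups overlapping. The share of uptake was lowest in both APAP libraries. Among canalicular members, Abcb4 was at 22.25 and 22.69 FPKM in control and at 46.51 and 43.77 in APAP. By FPKM, Abcc2 was at 46.03 and 44.34 in APAP beside 55.67 and 54.95 in control. Abcg2 was at 6.73 and 6.29 beside 7.09 and 6.90. Neither difference passed by edgeR, which rescales the libraries (-0.15 and 0.04, adjusted p = 0.282 and 0.895). For Abcg2 the sign there was opposite to that of the FPKM values. Abcb1a was higher but small (1.93 and 0.95 beside 0.76 and 0.91). Within the canalicular sum, Abcb4 thus had the largest rise in APAP. The total of the members was also lower there, with uptake sums of 77.57 and 80.47 FPKM in control and 47.78 and 47.71 in APAP. Abcc6 was lower as well (16.12 and 18.70 FPKM beside 36.21 and 35.68 in control). In COS+APAP replicate 3 the canalicular share was 47.7% with Abcb4 at 22.03 FPKM, so the share did not follow Abcb4 alone. The ratio of Abcb4 to Abcc2 was 0.4 and 0.413 in control, 1.01 and 0.987 in APAP, with 0.63 and 0.462 in COS+APAP. Abcc4 was 0.629% and 0.637% of the Abcc2 level in control, 1.54% and 1.53% in APAP, with 2.88% and 2.85% in COS+APAP. The summed levels were not rescaled between libraries as in the edgeR tests. These sums, shares and ratios are descriptions of FPKM values with 2 libraries a group, and no exact permutation test of such values can give a p below 0.33.

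**Figure D3:**
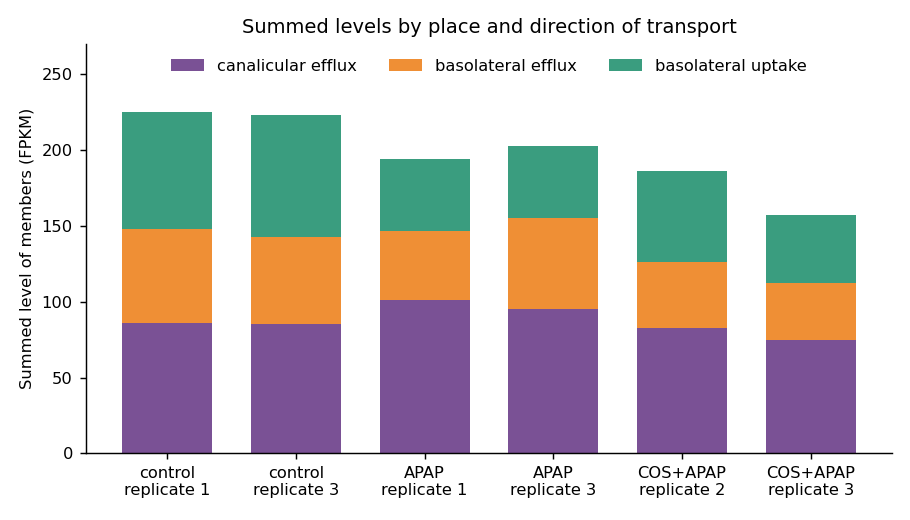
Summed FPKM of the canalicular efflux, basolateral efflux and basolateral uptake members (vertical axis), stacked in 1 bar for each of the 6 libraries. Uptake sums are 77.57 and 80.47 in control and 47.78 and 47.71 in APAP.

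For each member above the filter, the tested gene with the most similar pattern was found by Pearson's r of log2(FPKM + 1) over the 6 libraries, as a description. These were Lbh for Abcc2 (r = 0.9976), Tomm70a for Abcc3 (0.9966), Sdhb for Abcc6 (0.9997), mt-Td for Abcg2 (0.9831), Slfn2 for Abcb4 (0.9929), Gm6652 for Slco1a1 (0.9518) and Gltpd2 for Slco1b2 (0.9990). With 10051 genes compared over 6 libraries of 3 groups, high values of r are frequent.

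Other uptake carriers of liver cells, organic anion, cation and nucleoside transporters, mostly fell in APAP. Of 21 tested among 32 listed, 3 rose, 13 fell and 5 did not pass (median log2 fold change -0.57 beside -0.00 over all genes), so that 76.2% were called beside 45.4% of all tested genes. The count of falls was 6 without APAP replicate 1 or APAP replicate 3 and 5 without control replicate 1. Slc17a3, a urate and organic anion carrier, fell by 2.01 (edgeR adjusted p = 0.00122) and Slc22a30 by 2.07 (0.0022), while Slc16a1, the monocarboxylate carrier MCT1, rose by 1.67 (0.00177) and Slc22a5, the carnitine carrier OCTN2, by 1.64 (0.00427).

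With costunolide before APAP, 3 of these 21 rose against APAP alone and 2 fell. The share called, 23.8%, was near the 22.4% of all tested genes. Slc22a3, the organic cation carrier OCT3, stood at 1.16 and 1.58 FPKM in control, at 0.19 and 0.06 in APAP and at 1.59 and 1.76 in COS+APAP. The APAP libraries held less than any other library. This gene passed the filter only through control and COS+APAP. The difference of 3.71 (edgeR adjusted p = 0.0129) was 3.72 without a filter (0.0172), ranged from 1.25 to 4.77 over the alternatives and was lost without COS+APAP replicate 2 (0.0502) or 3 (0.0501). Slco2a1, the prostaglandin transporter, was lower in COS+APAP than in APAP (-0.95, adjusted p = 0.0088). Slc17a3 (0.73, adjusted p = 0.0223) and Slc17a1 (1.29, adjusted p = 0.0224) were higher, calls that ended when any one of the 4 libraries compared was left out (highest adjusted p 0.0921 and 0.1). The count of rises was 1 without APAP replicate 1 and 0 without either COS+APAP library, and the count of falls was 1 without any library except APAP replicate 3. By DESeq2 and with upper-quartile scaling 6 rose, and 1 fell with upper-quartile scaling, with filterByExpr or no filter and with 4 libraries.

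Of the other efflux pumps, 15 of 21 were tested, and 2 rose, 3 fell and 10 did not pass in APAP (median 0.05), or 5 fell by limma on log2(FPKM + 1). The share called was 33.3% beside 45.4% of all tested genes. Slc47a1, the canalicular cation exporter MATE1, stood at 62.10 and 66.25 FPKM in control, at 14.17 and 13.01 in APAP and at 18.29 and 18.40 in COS+APAP. Control was far above the other libraries, and Slc47a1 in APAP fell by 2.10 ± 0.11 (edgeR adjusted p = 0.000914), a size greater than that of any member's fall in APAP. Atp7b, the copper exporter, fell by 1.14 (0.00337), and the lipid transporters Abca1 and Abca6 rose by 1.18 each (0.00289 and 0.00779).

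Compared with APAP alone, 2 of these 15 rose and 4 fell, a share called of 40.0% beside 22.4% of all tested genes. Abcb11, the bile salt export pump, stood at 60.35 and 67.42 FPKM in control, at 48.58 and 43.86 in APAP and at 29.51 and 24.00 in COS+APAP. It was lowest in both COS+APAP libraries, with a change of -0.77 from APAP (edgeR adjusted p = 0.0212) and -1.10 from control (0.00933). The former was lost without APAP replicate 1, COS+APAP replicate 2 or COS+APAP replicate 3 (adjusted p = 0.0989, 0.0516 and 0.0832). Atp7b was higher in COS+APAP (0.91, adjusted p = 0.0151), lost without the same libraries (highest 0.067). Abca8b was lower (-0.58, 0.0246), lost without any one of the 4 libraries compared (highest 0.109), and Slc47a1 was higher (0.45, 0.0385), lost without any one of the 6 (highest 0.134). The count of rises was 0 without APAP replicate 1 or either COS+APAP library and 1 without either control library. The count of falls was 0 without APAP replicate 1 or COS+APAP replicate 3 and 1 without APAP replicate 3 or COS+APAP replicate 2. With no filter 1 rose and 1 fell, and 1 rose with filterByExpr or with 4 libraries.

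Transcription factors known to act on transporter genes were counted next. In APAP, 3 of 25 tested rose, 8 fell and 14 did not pass (median -0.09), a share called of 44.0% beside 45.4% of all tested genes. Nr1i3, the xenobiotic receptor CAR, stood at 119.36 and 113.02 FPKM in control, at 20.90 and 29.80 in APAP and at 56.95 and 49.14 in COS+APAP. Nr1h4, the bile acid receptor FXR, stood at 72.12 and 70.27, 16.98 and 20.43, and 47.06 and 31.73 in the same order. For both genes control was highest, APAP lowest and COS+APAP between, with no overlap. Nr1i3 in APAP fell by 2.06 (edgeR adjusted p = 0.00163) and Nr1h4 by 1.79 (0.00257), while Bach1, a repressor of antioxidant genes, rose by 2.48 (0.00134).

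In COS+APAP, 8 of the 25 rose and 2 fell against APAP, a share called of 40.0% beside 22.4% of all tested genes. Bach1 was lower (-2.08, edgeR adjusted p = 0.00589) in every alternative run. Ppargc1a, a coactivator of metabolic genes, was higher (1.68, 0.0105), a gene that passed the filter only through COS+APAP. Without a filter it stood at 1.69 (0.0161), and without APAP replicate 1 the call was lost (0.0574). Nr1i3 was higher as well (1.09, 0.0162), lost without APAP replicate 1, COS+APAP replicate 2 or COS+APAP replicate 3 (highest 0.0706). The count of rises was 1 without APAP replicate 1, 3 without APAP replicate 3 or COS+APAP replicate 3, and 4 without COS+APAP replicate 2, and 5 with no filter. The count of falls was 1 without APAP replicate 1 or COS+APAP replicate 2.

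Partners that anchor or deliver canalicular pumps were the last membrane group. Of 17 tested, 3 rose, 5 fell and 9 did not pass in APAP (median -0.38), a share called of 47.1% beside 45.4% of all tested genes, and 9 fell by DESeq2 and 8 by limma or with upper-quartile scaling. Rdx, radixin, which links canalicular Abcc2 to the actin cortex, stood at 17.49 and 17.66 FPKM in control, at 2.21 and 3.10 in APAP and at 11.51 and 11.48 in COS+APAP. The 3 groups did not overlap and APAP was lowest. Rdx in APAP fell by 2.59 ± 0.17 (edgeR adjusted p = 0.00109) and was higher in COS+APAP than in APAP by 2.14 (0.00501), each in every alternative run. Slc9a3r1, the scaffold NHERF1, fell from 170.20 and 148.96 FPKM in control to 49.60 and 53.60 in APAP (-1.49, 0.00144) and stood at 64.34 and 58.54 in COS+APAP.

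In the same list the small membrane protein gene Pdzk1ip1 in APAP fell by 1.77 (edgeR adjusted p = 0.00509), or by 1.76 without a filter (0.00898), which it passed only through control. Relative to APAP, 3 of the 17 rose and 4 fell, a share called of 41.2% beside 22.4% of all tested genes. Msn, moesin, was lower (-1.57, 0.00575) in every alternative run. Vipas39, of apical trafficking, was higher (1.25, 0.0198), lost without APAP replicate 1, COS+APAP replicate 2 or COS+APAP replicate 3 (highest 0.0824). The count of falls was 2 without any one of the 6 libraries, with filterByExpr or no filter and with 4 libraries, and that of rises was 1 without APAP replicate 1, COS+APAP replicate 2 or COS+APAP replicate 3.

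Stress genes of the NRF2 response were listed because NRF2 is known to act on Abcc2, Abcc3 and Abcc4. Of 9 stress genes tested, 7 rose and 2 did not pass in APAP (median 1.29), a share called of 77.8% beside 45.4% of all tested genes. Hmox1 (7.24), Gclc (2.84), Txnrd1 (2.38) and Gsr (1.29) rose. In COS+APAP against APAP, 4 fell and 5 did not pass (median -0.68), with Hmox1 at -2.54, Txnrd1 at -1.29, Gclc at -0.96 and Gsr at -0.70. The share called was 44.4% here and 55.6% in COS+APAP against control, beside 22.4% and 21% of all tested genes. The count of falls was 2 without APAP replicate 1 or COS+APAP replicate 3 and 1 without COS+APAP replicate 2. Against control, 5 rose in COS+APAP and 4 did not pass (median 1.09), or 3 rose without control replicate 1, control replicate 3 or COS+APAP replicate 3.

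Against control, COS+APAP had 6 falls and 2 rises among the 21 other uptake carriers (median -0.19) and 4 falls and 2 rises among the 15 other efflux pumps (median -0.24). The shares called were 38.1% and 40.0% beside 21% of all tested genes. Falls among uptake carriers numbered 3 without COS+APAP replicate 3 and 2 without control replicate 1 or 3, and those among efflux pumps 2 without COS+APAP replicate 3 or control replicate 3. The rises among uptake carriers numbered 1 without COS+APAP replicate 2, COS+APAP replicate 3 or control replicate 1 and 0 without control replicate 3, and those among efflux pumps 0 without any one library except control replicate 1, and also by limma or with no filter. With filterByExpr or 4 libraries 1 efflux pump rose. Slc47a1 (-1.65, edgeR adjusted p = 0.00273), Slc17a3 (-1.28, 0.00622) and Slc22a30 (-2.60, 0.00372) stayed below control in every alternative run.

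Ppm1k, a mitochondrial phosphatase gene (chr6:57506502-57535426), lies before Abcg2 on chromosome 6. Ppm1k fell by 0.92 in APAP (edgeR adjusted p = 0.0202), a call lost without APAP replicate 1 (0.0655), APAP replicate 3 (0.0916) or control replicate 1 (0.0559), whereas Abcg2 did not pass. Of the other listed neighbours, Abcc1, the MRP1 gene, stood at 0.07 to 0.21 FPKM and Pkd2 did not pass in APAP (0.30).

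**Figure D4:**
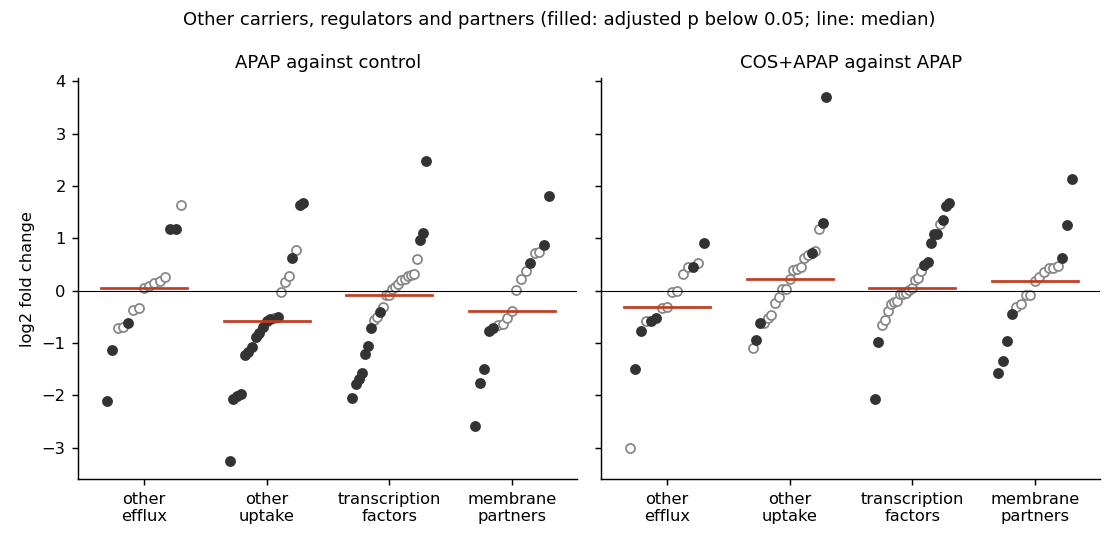
Log2 fold changes (vertical axis) of the tested genes of 4 lists in APAP against control (left) and COS+APAP against APAP (right), 1 point a gene, filled where the adjusted p was below 0.05, with a line at each list's median. The uptake carriers centre at -0.57 in APAP and at 0.23 between COS+APAP and APAP.

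Hepatocyte zone markers moved beside these groups. The summed level of 8 pericentral markers was 3298 and 2563 FPKM in control, then 901.8 and 1309 in APAP, then 3335 and 2747 in COS+APAP, and that of 8 periportal markers was 2077 and 1622, 2381 and 2670, and 2434 and 2505. Of 6 pericentral markers tested, 6 fell in APAP and 6 rose between COS+APAP and APAP. Of 8 periportal markers tested, 3 rose in APAP, and 1 rose and 3 fell between COS+APAP and APAP. Over all tested genes 45.4% were called in APAP against control and 22.4% in COS+APAP against APAP. Kupffer cell markers summed to 82.13 to 128.3 FPKM. Erythroid markers summed to 297.5 and 269.4, 1492 and 1075, and 309.3 and 316.4 FPKM. Their part in the transporter values was not tested.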

How the data were processed

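Liver RNA of 6 libraries in 3 groups was analysed. The submitters' processing notes name HISAT2 2.0 and StringTie 1.3.0. No genome build is given in the sources used here. The authors deposited estimated counts per gene, per the file headers, which were whole numbers already. FPKM values of the same genes were deposited beside them. Another 6 value columns matched no sample and were not used. Coordinates are the table's own. Of 55141 identifiers shared with GENCODE M21 (GRCm38), 94.2% had identical coordinates, 7 of the 9 members among them.

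Counts were tested in edgeR 4.0.16 (R 4.3.3) by its quasi-likelihood F test, two-sided, with TMM scaling and 1 model of the 3 groups (3 residual degrees of freedom), on genes averaging 1 FPKM or more, with Benjamini-Hochberg adjustment and a threshold of 0.05. Fold changes come from counts and differ slightly from ratios of FPKM. The standard error (SE) beside an edgeR change is derived from its test, as the absolute log2 fold change over the square root of F. Alternatives were DESeq2 1.42.0, limma 3.58.1 on log2(FPKM + 1) or log2(FPKM + 0.1), other scalings and filters, counts divided by 4 because a fragment may stand for about 4 counts, the 4 libraries compared alone, a replicate block and leaving out each library. Scripts were tested on simulated data.

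All 9 members are named. From each list, the 4 genes with the lowest p in APAP against control and the 4 in COS+APAP against APAP among those called are named, and the members' genomic neighbours, except that some of these are not reported here. The members and lists were chosen with earlier results of these data known. Promoter windows come from RefSeq.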

Additional observations from a re-analysis of the deposited data

How the results depend on the processing

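Over the 27 pairs of member and comparison, 435 values were computed under alternatives, of which 378 kept direction and side of the threshold, 36 lost a call, 4 gained one and 17 turned sign. The count of members called between COS+APAP and APAP, 1, was 2 by DESeq2 and 3 with the filterByExpr filter, with no filter and at a mean of 0.5 FPKM (added after seeing the data), where more genes were tested, and 0 to 1 when each library was left out in turn. Between COS+APAP and control the count of 1 was 2 by DESeq2, with filterByExpr, by limma with either pseudocount, at 0.5 FPKM and with no filter, and 0 to 1 without each library.

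The sign turned only for values that had not passed. Abcg2 in APAP against control was -0.10 and -0.09 by limma with pseudocounts 0.1 and 1, -0.08 with upper-quartile scaling and -0.06 to 0.11 without each library. Between COS+APAP and APAP it was 0.06 with upper-quartile scaling and -0.35 to 0.19 without each library, and against control -0.31 to 0.23. Slco1a1 ranged from -0.52 to 0.36, -0.85 to 0.23 and -0.95 to 0.15 in the 3 comparisons, and Abcc3 in COS+APAP against control from -0.15 to 0.13. The cause was not tested.

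Control and APAP share the replicate numbers 1 and 3. With the replicate block 3 members were called in place of 4 (Abcc3 adjusted p = 0.0921), and Abcc4 was lost as well (0.0981). The deviations of same-numbered libraries correlated at r = 0.0175 over 10051 genes. With 2 libraries a group, this value cannot show whether the shared number marks a pairing. No paired analysis was possible for the COS+APAP comparisons because these groups share 1 number with each other group. Over all genes, the count called between COS+APAP and APAP, 2249, was 3552 by DESeq2 and 612 to 1941 without each library, and that against control, 2109, was 3421 by DESeq2 and 590 to 1716. With 2 libraries a group, small differences of Abcc2 and Abcg2 could not be resolved.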
